A study of Mus musculus with 3 samples.

Results

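The genes described here are 39 genes of DNA replication and S phase, taken as a list of symbols from the 32285 genes of the deposited matrix. The list was chosen with earlier results of these data known. All 39 were found in the matrix, and each gave at least 98 unique molecular identifiers (UMIs, counted as molecules) over the B cells of the 6 mice. The mice were LDHA-deficient or LDHA-sufficient (3 each), and the cells came from their spleens. LDHA is a subunit of lactate dehydrogenase, the enzyme that turns pyruvate into lactate. The hashtag labels write KO and WT for these genotypes. The sources used here do not give the allele, the driver of its deletion, the deleted part of the gene, the strain, the age or any immunisation. Cells of each mouse were marked with their own antibody hashtag, sorted as viable B cells and on GL7, a surface antigen borne by B cells of the germinal centre (GC) and by some activated ones, and pooled on 1 lane of a droplet kit that reads transcript 5′ ends. The design text states that the role of LDHA in activation and proliferation of GC B cells was the question. Each mouse counts as 1 replicate (n = 3 of each genotype), and a state name such as GC B-like was rebuilt from marker genes.

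In S phase each chromosome is copied once. Origins are licensed in G1 by loading the Mcm2 to Mcm7 ring, which Cdc45, the GINS complex and Mcm10 turn into a moving helicase. Polymerases then extend primed strands on the sliding clamp Pcna, while ribonucleotide reductase and thymidylate synthase supply nucleotides and histone chaperones repackage the copies. Many of these genes are transcribed together at the G1 to S boundary by E2F factors. GC B cells are known for some of the fastest divisions among mammalian cells, activated B cells prepare for division, and follicular and marginal zone B cells rest.

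Part of the 39 genes share sequence letters near their start sites. Promoters of 250 bases before to 50 bases after the start site were taken from RefSeq (GRCm38.p6), and 29 of the 39 genes were matched by symbol. The E2F-type letters TTTCCCGC, TTTCGCGC, TTTGCCGC and TTTGGCGC were searched on both strands, and neighbouring matches may overlap. At least 1 match lay in the promoters of 13 of these 29 genes (44.8%), against 2.60% of 27025 genes with a promoter in the table. The 13 are Mcm3, Mcm5, Mcm6, Mcm7, Cdc6, Dtl, Cdca7, Clspn, Lig1, Pold3, Uhrf1, Hells and Pola1. The letters CCAAT, which can share an end base with an E2F-type match as in Mcm7, lay in 72.4% of the genes' promoters, against 41.1% of all. Among 47 mitotic genes with a promoter, 6.38% held an E2F-type match and 76.6% held CCAAT. Of further replication genes with a promoter, 15 of 47 held an E2F-type match and 21 of 47 held CCAAT. Of regulators of the G1 to S step, 7 of 20 and 10 of 20 did. E2F-type letters are thus not particular to the 39 genes. The stretches below show the matches, in capitals, for 4 subunits of the helicase ring, its loader Cdc6 and the chromatin remodeller Hells. Each reads 5′ to 3′ on the gene's strand with up to 40 bases on either side, and a match is a description of letters, not evidence of binding.
Mcm3, chr1:20820263-20820333, minus strand: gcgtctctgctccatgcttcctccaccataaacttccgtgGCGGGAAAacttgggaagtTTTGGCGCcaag
Mcm5, chr8:75109316-75109407, plus strand: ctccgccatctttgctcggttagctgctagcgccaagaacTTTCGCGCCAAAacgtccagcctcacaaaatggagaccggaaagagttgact
Mcm6, chr1:128359705-128359855, minus strand: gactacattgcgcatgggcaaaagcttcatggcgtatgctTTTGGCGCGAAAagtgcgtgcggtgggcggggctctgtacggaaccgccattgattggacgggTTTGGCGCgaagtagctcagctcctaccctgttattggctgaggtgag
Mcm7, chr5:138171834-138172088, minus strand: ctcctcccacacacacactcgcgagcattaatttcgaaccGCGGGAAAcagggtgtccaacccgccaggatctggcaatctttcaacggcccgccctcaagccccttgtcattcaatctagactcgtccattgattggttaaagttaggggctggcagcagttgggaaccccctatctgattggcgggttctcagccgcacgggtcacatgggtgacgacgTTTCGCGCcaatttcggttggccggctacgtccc
Cdc6, chr11:98907973-98908060, plus strand: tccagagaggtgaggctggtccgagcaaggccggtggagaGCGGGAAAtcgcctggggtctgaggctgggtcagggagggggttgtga
Hells, chr19:38930888-38930975, plus strand: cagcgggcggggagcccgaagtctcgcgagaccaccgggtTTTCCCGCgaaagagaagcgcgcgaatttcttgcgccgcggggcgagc

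In the stretch of Mcm6, 2 of its 3 matches overlap each other on opposite strands, and so do the 2 matches of Mcm5. Mcm3 has both of its matches after the start site, and Mcm7 has 1 on either side of it.

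After hashtag calling and filters, 1849 cells remained, 1776 of them of the B lineage, with 1118909 to 2215343 B cell UMIs per mouse. The targeted gene Ldha stood at 50.7, 50.5 and 71.0 counts per 1000000 UMIs (CPM) over all B cells of LDHA-deficient mice, against 232, 242 and 167 in LDHA-sufficient mice (log2 fold change -1.91, SE 0.17, adjusted p = 0.000338, edgeR). It was lower in every LDHA-deficient mouse. The GC B-like class holds 23 cells of LDHA-deficient mice (9, 6 and 8) and 158 of LDHA-sufficient mice (61, 77 and 20). It joins 2 clusters, 1 led by mitotic genes and 1 led by the GC genes S1pr2, Nuggc and Rgs13. Of the 12 GC marker genes, summed, the class gave 432, 2077 and 865 in LDHA-deficient mice, against 2582, 2474 and 1343 in LDHA-sufficient mice, in CPM. The same sum was 173, 203 and 180.5 in LDHA-deficient mice, against 199, 207 and 218 in LDHA-sufficient mice in B cells that were in neither the GC B-like class nor the plasma cell-like cluster. In the 7 cells of LDHA-deficient mouse 1 that fell in the mitotic cluster, the markers summed to 174 CPM (17 UMIs in all), beside 173 CPM in its B cells outside that class. These cells thus carry the GC name on their cluster only, and GC B-like results are also given without this mouse. LDHA-deficient cells of the class were 20 of 23 in the mitotic cluster, and LDHA-sufficient cells 101 of 158.

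The replication genes stood highest in GC B-like cells, intermediate in activated B-like cells and lowest in resting cells, a class that joins follicular and marginal zone B-like cells. The 39 genes together gave 7082, 6837 and 7189 in LDHA-deficient mice, against 6906, 6898 and 5411 in LDHA-sufficient mice, in CPM within GC B-like cells. In activated B-like cells the sum was 1862, 1505 and 3049 in LDHA-deficient mice, against 1451, 2552 and 1197 in LDHA-sufficient mice. In resting B-like cells it was 1018, 925 and 1131 in LDHA-deficient mice, against 1200, 1090 and 978 in LDHA-sufficient mice. Each mouse of either genotype kept this order in these clusters. GC B-like cells were also highest in every mouse under the 4 other settings run. Activated above resting held in all 6 mice at a clustering resolution of 0.4 but not under the other 3. With cell cycle genes kept in clustering it failed in LDHA-sufficient mouse 1. With hashtags called by a ratio rule, activated B-like cells gave 1162, 1042 and 1070 in LDHA-deficient mice, against 914, 1167 and 1224 in LDHA-sufficient mice, in CPM, and resting cells 965, 1025 and 1111 in LDHA-deficient mice, against 1371, 1113 and 918 in LDHA-sufficient mice, so that LDHA-deficient mouse 3 and LDHA-sufficient mouse 1 had the other order. LDHA-deficient mouse 3, at 3049 CPM above, had 1125 CPM with cell cycle genes kept. Its class then held 26 cells with 157 UMIs of these genes, against 33 cells with 741. Under this setting and the ratio rule, clusters of 88 and 125 cells were named myeloid and left the B classes. Their median depths were 8677.5 and 8835 UMIs. The B lineage marker Cd79a stood there at 0.64 and 0.68 times its level in other cells. Which cells moved into them was not tested. Without cells above 15000 UMIs the order turned in LDHA-deficient mouse 1 and LDHA-sufficient mice 1 and 3, where the resting class also took in a cluster of 25 cells led by the cell cycle gene E2f7. The sum in GC B-like cells was 6.96, 7.39 and 6.36 times that in resting cells of LDHA-deficient mice and 5.76, 6.33 and 5.53 times in LDHA-sufficient mice. For activated over resting the ratios were 1.83, 1.63 and 2.70 and 1.21, 2.34 and 1.22 in the same groups. The states are clusters of these cells, made without the 39 genes and without 139 other genes of the cell cycle but with other genes that cycle, so the levels are a description with no test.

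**Figure D1:**
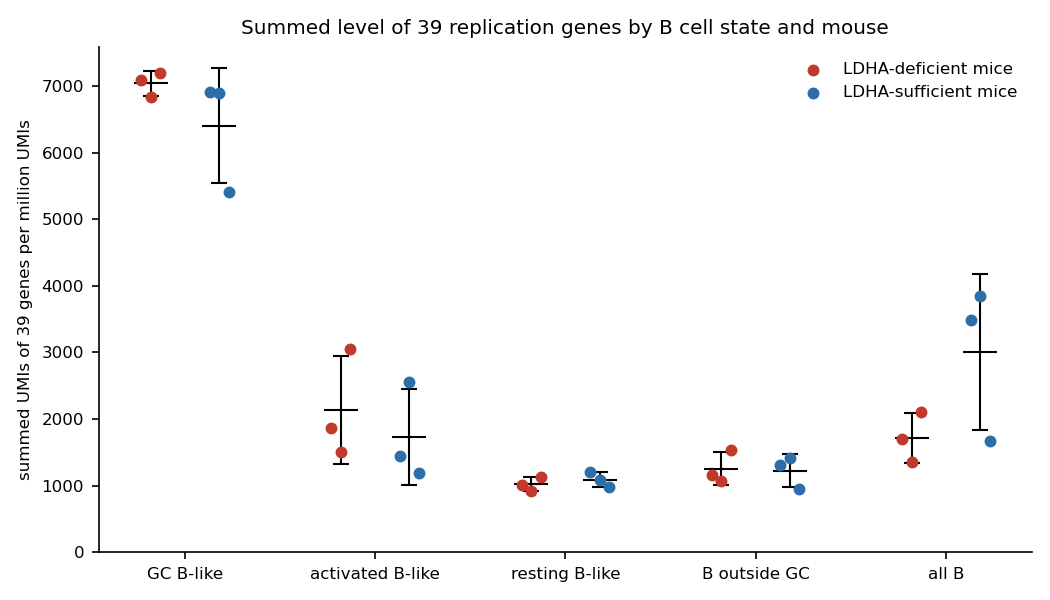
Summed level of the 39 genes in CPM (vertical axis) in each B cell class, with 1 point per mouse, LDHA-deficient left of LDHA-sufficient, and bars for mean ± SD (n = 3 mice). GC B-like cells sit between 5411 and 7189, above every other class, and over all B cells LDHA-sufficient mouse 3 lies among the LDHA-deficient mice.

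Gene by gene, in LDHA-sufficient mice, 36 of the 39 genes had at least 20 UMIs in the states set side by side and over 3 UMIs in resting cells. All 36 stood higher in GC B-like than in resting cells, by 1.66 to 20.3 times with a median of 6.32, beside a median of 1.02 over 9118 genes. The 20 UMIs are of both states together, so a gene rare in resting cells enters only through its GC B-like UMIs. Mcm10, Cdc6, E2f8, Pole, Dscc1 and Tyms had 5, 7, 6, 6, 5 and 6 UMIs in resting cells. For these genes a ratio above 1 was fixed by the minimum, and only its size is informative. A ratio above 5 was found for 28 of the 36, and for 2.69% of the 9118 genes. The other 3 had 3 or fewer UMIs in resting cells, so their ratios are given with exact 95% counting intervals. Cdc45, the helicase cofactor, had 107 UMIs in GC B-like and 3 in resting cells, a ratio of 21.3 (7.11 to 105). Cyclin E2 (Ccne2), which drives entry into S phase, had 134 UMIs in GC B-like and 2 in resting cells, a ratio of 40.1 (10.9 to 334). Rad51ap1, a helper of strand exchange in repair, had 155 UMIs in GC B-like and 3 in resting cells, a ratio of 30.9 (10.4 to 151).

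Among helicase genes, the ring subunits had like ratios. Mcm6 gave 335 CPM in GC B-like and 58.1 in resting cells (5.77 times), Mcm3 317 and 37.9 (8.36 times) and Mcm4 303 and 59.7 (5.08 times). Mcm2, Mcm5 and Mcm7 had ratios of 5.81, 6.82 and 5.89. Mcm10, which helps to start the helicase, had a larger ratio of 14.6, on 5 UMIs in resting cells, and Gins2, a subunit of the GINS complex, 5.74. Genes of licensing and timing had some of the widest ratios, at 11.8 for the loader Cdc6, 20.1 for the repressor E2f8 and 11.2 for Dtl, which directs destruction of the licensing factor Cdt1. In resting cells these genes had only 7, 6 and 13 UMIs, so their ratios are uncertain. Geminin (Gmnn), the inhibitor of Cdt1, had 7.25.

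The polymerase genes held both ends of the range. Pole, the catalytic subunit of the leading strand polymerase, had a ratio of 20.3, on 204 UMIs in GC B-like and 6 in resting cells. Pold3, an accessory subunit of polymerase delta, had 1.66, with 61.7 CPM in GC B-like and 37.1 in resting cells. The primase Prim1 and the priming polymerase Pola1 had 5.23 and 6.19. Of the clamp group, Pcna gave 378 CPM in GC B-like and 63.7 in resting cells (5.93 times) and Lig1, which seals Okazaki fragments, 287 and 32.3 (8.91 times). Fen1, which trims flaps, had 4.78, Dscc1, of an alternative clamp loader, 6.46, and the clamp loader subunit Rfc2 only 2.29. The nucleotide genes had ratios of 9.33 for Rrm1, the large subunit of ribonucleotide reductase, 14.6 for its small subunit Rrm2 and 14.3 for thymidylate synthase (Tyms). Tyms had only 6 UMIs in resting cells.

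Fork protection genes ran from 2.89 for Usp1, which removes ubiquitin from Pcna, to 16.8 for the checkpoint adaptor Clspn. Tipin, of the fork protection complex, had 5.58, the single-strand binding subunit Rpa2 4.90 and the helicase Blm 4.41. In the chromatin group, Slbp, which binds histone mRNA, gave 399.8 CPM in GC B-like and 87.9 in resting cells (4.55 times), and Hells, a remodeller, 329 and 36.3 (9.08 times). Uhrf1, needed to copy DNA methylation, had 15.0, Cdca7, the partner of Hells, 6.92, the chaperones Chaf1b and Nasp 6.45 and 5.94, and Atad2 3.23.

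Activated B-like cells differed less from resting cells. Of the 30 genes with enough UMIs, 28 stood above resting cells, with a median ratio of 1.78 beside 0.955 over 8150 genes. The ratios ran to 5.50 for Pole, 4.45 for Cdc6, 4.01 for Cdca7 and 3.53 for Dtl. In activated B-like cells, by LDHA-sufficient mouse, Pole had 5, 12 and 1 UMIs, Cdc6 8, 9 and 0 and Dtl 6, 19 and 0. In resting cells of these mice together they had 6, 7 and 13. For Pole and Cdc6 the minimum of UMIs again fixed a ratio above 1. Pole passed 5, as did 0.282% of all genes. These ratios are of LDHA-sufficient mice. Gmnn was the lowest at 0.473, from 8 UMIs in activated B-like and 31 in resting cells, and 7 of the 8 came from mouse 2. LDHA-deficient mice had the other order for Gmnn, with 60.3, 21.1 and 41.1 CPM in activated B-like and 26.7, 17.2 and 22.8 CPM in resting cells by mouse (31 and 27 UMIs). Pcna, Mcm6 and Slbp had ratios of 1.60, 1.40 and 1.04.

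**Figure D2:**
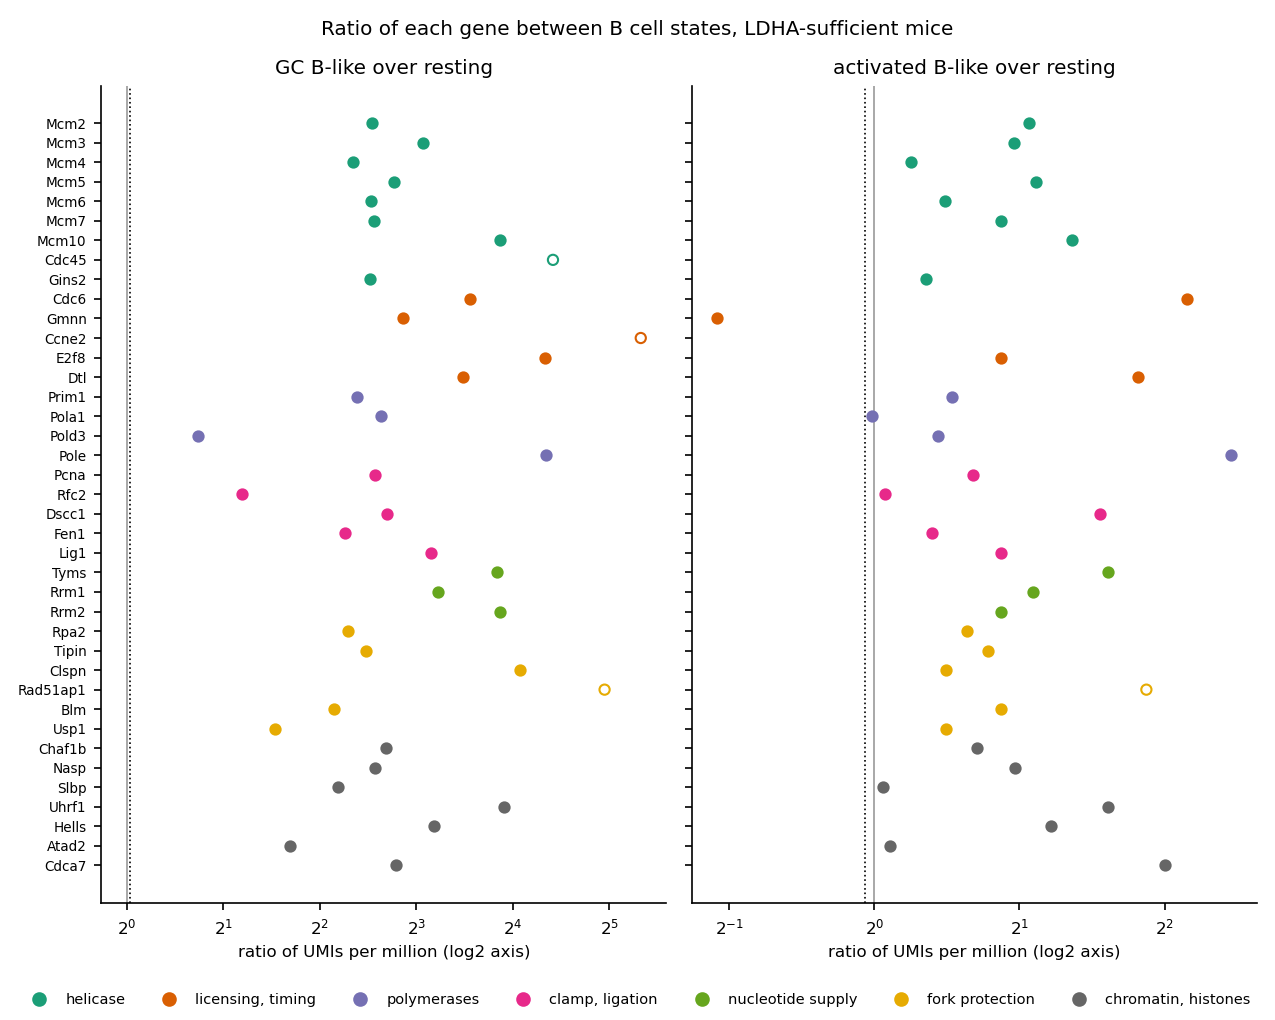
Ratio of CPM (log2 axis) of each gene in GC B-like over resting (left) and activated B-like over resting cells (right), pooled over the 3 LDHA-sufficient mice. Filled points are ratios, genes with few UMIs included, open points are ratios with 3 or fewer UMIs in resting cells, the dotted line is the median of all genes (1.02 and 0.955), and the filled GC ratios run from 1.66 for Pold3 to 20.3 for Pole.

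The 2 GC B-like clusters held the genes unevenly. In LDHA-sufficient mice the 39 genes summed to 7678 CPM in the mitotic cluster and 3825 in the other, with median depths of 12961 and 7452 UMIs per cell. All 39 were higher in the mitotic cluster, by 1.04 to 21.6 times. Cdca7, Mcm2 and Dtl were nearly level, at 180.3 and 173, 166 and 157 and 120.2 and 108 CPM. E2f8, Rrm2 and Rad51ap1 parted most, at 127 and 5.89, 271 and 29.5 and 94.0 and 15.7. Mcm3, Mcm4 and Mcm6 stood at 334 and 265, 323 and 244 and 352 and 285. These genes were named after their values were seen, and the clusters are of the same cells, so no test applies. LDHA-deficient mice had 3 cells in the second cluster, which gave 1946 CPM, and 20 in the mitotic cluster, which gave 7441.

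At equal depth per cell, GC B-like cells again stood highest in every mouse, while activated B-like cells stood above resting cells in 5 of 6 mice. Each cell was thinned to 2000 UMIs, which left out 22 shallower B cells of LDHA-deficient mice and 26 of LDHA-sufficient mice, and cells with 5 or more UMIs of the 39 genes were counted. In GC B-like cells these were 88.9, 83.3 and 75.0 in LDHA-deficient mice, against 83.3, 73.7 and 88.9 in LDHA-sufficient mice, in percent, from 9, 6 and 8 cells against 60, 76 and 18. Exact Clopper-Pearson 95% intervals ran from 34.9% to 99.7% over the LDHA-deficient and from 62.3% to 98.6% over the LDHA-sufficient mice, and they cover counting error only. In activated B-like cells the shares were 11.8, 12.2 and 27.3 in LDHA-deficient mice, against 17.6, 25.0 and 3.57 in LDHA-sufficient mice, in percent. In resting cells they were 4.40, 8.21 and 13.2 in LDHA-deficient mice, against 7.29, 11.6 and 12.0 in LDHA-sufficient mice, in percent. In LDHA-sufficient mouse 3 the activated share, 1 of 28 cells, lay below the resting share, 11 of 92. Myeloid cells, which here should hold few dividing cells, gave 0 of 19 cells of LDHA-deficient and 0 of 36 of LDHA-sufficient mice, at a median depth of 2532 UMIs beside 9905 in GC B-like and 3569 in resting cells. A count of 0 of 36 allows a share of up to 9.74% (exact 95% bound). Below the cut, myeloid cells did hold such UMIs. Thinned myeloid cells averaged 1.37 and 1.28 UMIs of the 39 genes, beside 2.14 and 2.26 in resting cells. At least 1 UMI was found in 89.5% and 72.2% of myeloid and 86.0% and 84.7% of resting cells. The ratios over resting cells were not corrected for this background. Without thinning, the shares with 5 or more UMIs were 95.7% and 96.2% of GC B-like, 60.4% and 63.5% of activated B-like, 38.1% and 37.5% of resting and 21.4% and 28.9% of myeloid cells. LDHA-deficient mice come before LDHA-sufficient mice in each of these pairs. Cells with 4 or 5 UMIs, next to the limit, numbered 94 of 841 and 124 of 887 B cells in the same order.

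Nearly all thinned GC B-like cells held 5 or more UMIs of 53 mitotic genes, 21 of 23 in LDHA-deficient mice and 145 of 154 in LDHA-sufficient mice. Among those with 5 or more UMIs of the 39 genes it was 17 of 19 and 119 of 122, which is close to the share in the whole class. Many cells of other classes met the same mitotic cut. Of resting cells, 34 of 91, 58 of 134 and 30 of 76 did so in LDHA-deficient mice. In LDHA-sufficient mice it was 32 of 96, 37 of 86 and 34 of 92 resting cells. Of myeloid cells, 12 of 19 met it in LDHA-deficient and 15 of 36 in LDHA-sufficient mice. The cut alone therefore does not mark a cell as dividing. Single genes were sparse at this depth. Slbp gave a UMI in 46.9% of thinned GC B-like cells, 15.3% of resting and 3.64% of myeloid cells, and Mcm3 in 45.8%, 7.65% and 3.64%. Pcna gave 44.6%, 14.3% and 20.0%, so its share in resting cells is no higher than the background in myeloid cells. The same held for Gins2, Cdc6, Dtl, Pole, Lig1, Tipin and Nasp. Lig1 gave 5.91% of resting and 7.27% of myeloid cells, Dtl 1.39% and 3.64%, and Cdc6 0.348% and 1.82%. The remaining genes had lower shares in myeloid than in resting cells. Myeloid shares rest on the 19 and 36 cells above. Rrm2 gave 27.7% and 3.48% of GC B-like and resting cells, and Clspn 24.9% and 1.57%.

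**Figure D3:**
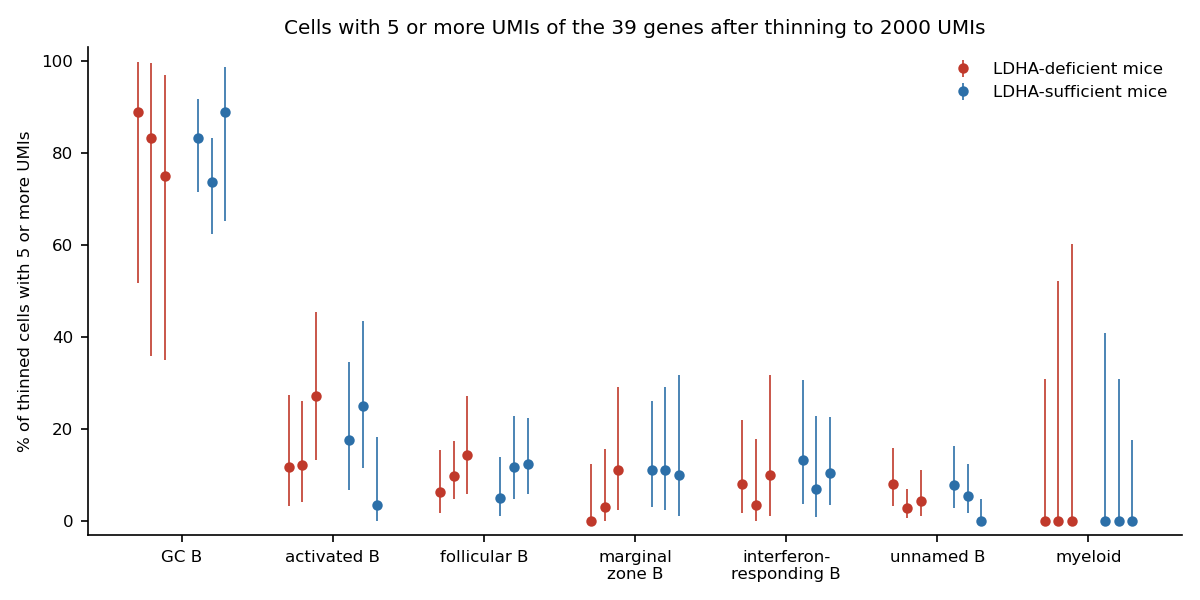
Percent of cells with 5 or more UMIs of the 39 genes after thinning each cell to 2000 UMIs, with 1 point per mouse and exact Clopper-Pearson 95% intervals, LDHA-deficient left of LDHA-sufficient. GC B-like cells lie between 73.7% and 88.9% in every mouse, activated B-like cells between 3.57% and 27.3%, and myeloid cells at 0.

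Over all B cells, every one of the 39 genes had a lower mean level in LDHA-deficient mice by its fold change, but none passed the test. The sum was 1698, 1353 and 2110 in LDHA-deficient mice, against 3488, 3854 and 1665 in LDHA-sufficient mice, in CPM. LDHA-sufficient mouse 3 lay between the LDHA-deficient mice, so the genotypes overlap. All 39 genes had a negative log2 fold change, from -1.63 for Cdc6 to -0.37 for Pold3, with a median of -0.93 beside 0.016 over 9172 genes. None of the 39 had an adjusted p under 0.05 in edgeR's quasi-likelihood test (background 1.26% of genes called), while DESeq2 called 9 lower. An unadjusted edgeR p under 0.05 was found for 23 of the 39, beside 1538 of all 9172 genes. For 9 of the 39, every LDHA-deficient mouse lay below every LDHA-sufficient mouse, beside 10.3% of all genes. These 9 are Mcm4, Cdc45, Gins2, Rfc2, Dscc1, Rpa2, Tipin, Chaf1b and Slbp.

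The 4 with the smallest p were Gins2, Tipin, Cdc45 and Dscc1. Gins2 stood at 11.9, 6.70 and 9.65 CPM (scaled by TMM, as for all single genes between genotypes) in LDHA-deficient mice, against 24.5, 25.1 and 14.1 in LDHA-sufficient mice (log2 fold change -1.24, SE 0.30, adjusted p = 0.0558). Tipin stood at 36.5, 32.3 and 49.99 in LDHA-deficient mice, against 77.8, 91.1 and 50.5 in LDHA-sufficient mice (log2 fold change -0.93, SE 0.23, adjusted p = 0.0718). Both were lower in every LDHA-deficient mouse, Tipin by a narrow margin from LDHA-sufficient mouse 3. Cdc45, the helicase cofactor, stood at 10.3, 9.14 and 12.3 in LDHA-deficient mice, against 27.6, 20.0 and 12.6 in LDHA-sufficient mice (log2 fold change -0.99, SE 0.30, adjusted p = 0.123). Dscc1 stood at 4.75, 5.48 and 7.02 in LDHA-deficient mice, against 15.1, 13.7 and 8.17 in LDHA-sufficient mice (log2 fold change -1.15, SE 0.36, adjusted p = 0.124). Their groups do not overlap either.

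Several abundant genes overlapped between genotypes since LDHA-sufficient mouse 3 lay within the range of the LDHA-deficient mice. Mcm6 stood at 75.3, 60.9 and 99.1 in LDHA-deficient mice, against 169, 192 and 76.5 in LDHA-sufficient mice (log2 fold change -0.92, SE 0.42, adjusted p = 0.367), and Pcna at 112, 96.8 and 141 in LDHA-deficient mice, against 195, 210.1 and 107 in LDHA-sufficient mice (log2 fold change -0.57, SE 0.29, adjusted p = 0.391). Rrm1 stood at 78.5, 63.9 and 99.1 in LDHA-deficient mice, against 162, 173 and 77.3 in LDHA-sufficient mice (log2 fold change -0.80, SE 0.36, adjusted p = 0.352). Slbp stood at 95.1, 99.3 and 116 in LDHA-deficient mice, against 193, 242 and 123 in LDHA-sufficient mice (log2 fold change -0.86, SE 0.24, adjusted p = 0.145), and did not overlap. By role, the median log2 fold change was -1.28 for licensing and timing, -0.95 for the helicase, -0.93 for chromatin, -0.85 for clamp and ligation, -0.81 for polymerases, -0.80 for nucleotide supply and -0.80 for fork protection. Without LDHA-sufficient mouse 3, 36 of the 39 were called lower, beside 8.58% of 9607 genes called lower. With any other single mouse left out, none was. Of thinned B cells, 10.4, 7.34 and 13.7 in LDHA-deficient mice, against 24.7, 25.6 and 12.4 in LDHA-sufficient mice, in percent, held 5 or more UMIs of the 39 genes, and 7.23, 6.03 and 11.5 in LDHA-deficient mice, against 9.75, 10.5 and 6.97 in LDHA-sufficient mice, in percent, did so outside the GC B-like class.

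Other cell cycle genes were called where the 39 were not. Of 56 tested further replication genes, 4 fell in LDHA-deficient mice, namely the kinase activator Dbf4 (-1.14, adjusted p = 0.00862), the histone chaperone Asf1b (-1.59, adjusted p = 0.00875), Rfc5 (-1.09, adjusted p = 0.0462) and the nuclease Dna2 (-1.71, adjusted p = 0.0473), given with log2 fold changes. Of 52 mitotic genes, 19 fell and none rose, led by Ube2c (-1.30, adjusted p = 0.00284), Cdca2 (-1.93, adjusted p = 0.00363), Ckap2l (-1.77, adjusted p = 0.00515) and the mitotic cyclin Ccnb1 (-1.95, adjusted p = 0.00515). Of 24 G1 to S regulators, Ccna2 (-1.63, adjusted p = 0.00515), cyclin A2, fell and Myc (0.69, adjusted p = 0.0267) rose. Myc, a growth factor-induced transcription factor, stood at 76.1, 97.4 and 81.6 CPM in LDHA-deficient mice, against 48.5, 53.8 and 57.9 in LDHA-sufficient mice, above in every LDHA-deficient mouse. Mki67 had -1.58 (adjusted p = 0.279) and Top2a -1.34 (adjusted p = 0.222). Among B cells in neither the GC B-like class nor the plasma cell-like cluster, no gene of these lists passed in edgeR (background 0.0822%). Of 32 mitotic genes tested there, 15 had a negative and 17 a positive log2 fold change, with a median of 0.0046. Myc had 0.52 there (adjusted p = 0.207), 0.57 in activated B-like cells (adjusted p = 0.843) and 0.028 in resting cells (adjusted p = 0.914).

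The share of GC B-like cells moved with these values. They made up 3.35, 1.66 and 3.43 in LDHA-deficient mice, against 19.4, 23.9 and 7.25 in LDHA-sufficient mice, in percent of B cells. They carried 35.3, 24.9 and 34.9 in LDHA-deficient mice, against 77.5, 80.1 and 54.4 in LDHA-sufficient mice, in percent of all UMIs of the 39 genes. LDHA-sufficient mouse 3, with the smallest share of its genotype, is the mouse whose summed level lay among LDHA-deficient mice. GC B-like cells are deeper than other B cells, and held 8.45, 4.94 and 10.2 in LDHA-deficient mice, against 39.1, 44.8 and 16.7 in LDHA-sufficient mice, in percent of all UMIs of B cells. The sort on GL7 can set the share of GC B-like cells, since the labels do not say how the gates were pooled for each mouse, and its part in the result was not tested. Activated B-like cells carried 21.2, 18.5 and 31.4 in LDHA-deficient mice, against 4.67, 7.86 and 8.66 in LDHA-sufficient mice, in percent of the same UMIs.

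**Figure D4:**
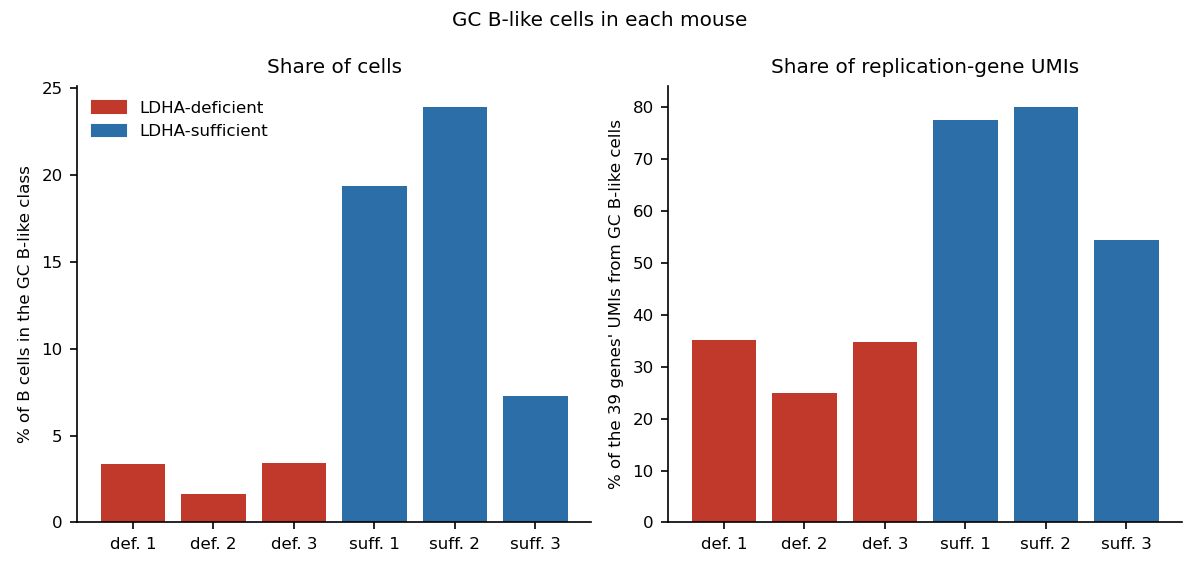
Percent of B cells in the GC B-like class (left) and percent of the UMIs of the 39 genes that came from that class (right), with 1 bar per mouse. LDHA-deficient mice (def.) reach 3.43% of cells and 35.3% of UMIs at most, and LDHA-sufficient mice (suff.) start at 7.25% and 54.4%.

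Among B cells in neither the GC B-like class nor the plasma cell-like cluster, the genotypes differed by less than the spread between mice. The sum was 1167, 1069 and 1537 in LDHA-deficient mice, against 1311, 1423 and 952 in LDHA-sufficient mice, in CPM, with means of 1258 ± 247 in LDHA-deficient mice and 1228 ± 246 in LDHA-sufficient mice (SD, n = 3 each). Of 32 genes tested, 16 had a negative and 16 a positive log2 fold change, with a median of -0.010 beside -0.0028 over 8516 genes. None of the 32 passed in edgeR (background 0.0822%), none had an unadjusted p under 0.05 (beside 436 of all 8516 genes), and DESeq2 called none. The 4 smallest p belonged to Mcm3, Rrm2, Pole and Atad2. Mcm3 stood at 67.8, 50.3 and 65.3 in LDHA-deficient mice, against 55.2, 50.2 and 41.3 in LDHA-sufficient mice (log2 fold change 0.30, SE 0.17, adjusted p = 0.957). The other 3 had log2 fold changes of 0.50, 0.58 and -0.33 with adjusted p = 0.9803 for each, and SE of 0.30, 0.38 and 0.21. Red cell markers summed to 36.5, 48.1 and 194 in LDHA-deficient mice, against 1097, 26.8 and 4043 in LDHA-sufficient mice, in CPM, and their part was not tested.

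In activated B-like cells, 19 genes had enough UMIs to test, 12 with a positive and 7 with a negative log2 fold change, and none passed in edgeR (background 0.0247%, the 1 gene called being Ldha). Mcm6 and Mcm3 had an unadjusted p under 0.05, beside 234 of all 4043 genes, and DESeq2 called none of the 39. Mcm6 stood at 131, 89.8 and 225 in LDHA-deficient mice, against 74.8, 105 and 96.7 in LDHA-sufficient mice (log2 fold change 0.68, SE 0.31, adjusted p = 0.843). Mcm3 stood at 149, 85.7 and 162 in LDHA-deficient mice, against 70.1, 105 and 69.1 in LDHA-sufficient mice (log2 fold change 0.66, SE 0.31, adjusted p = 0.843). For both, LDHA-deficient mouse 2 lay among the LDHA-sufficient mice. Fen1, at 49.5, 57.2 and 76.5 in LDHA-deficient mice, against 42.1, 42.0 and 27.6 in LDHA-sufficient mice (log2 fold change 0.67, SE 0.39, adjusted p = 0.860), did not overlap, and Mcm4 had a log2 fold change of 0.47 (adjusted p = 0.909). Red cell markers in this class summed to 24.1, 56.4 and 691 in LDHA-deficient mice, against 5124, 15.6 and 25972 in LDHA-sufficient mice, in CPM, and their part was not tested. In resting cells, 18 genes were tested, 13 with a negative sign and a median of -0.19 beside -0.0022 over 5543 genes. None passed in edgeR (background 0.108%) or DESeq2, and none had an unadjusted p under 0.05, beside 339 of all 5543 genes. The smallest p were those of Mcm6, at -0.48 (SE 0.28), Pold3, at -0.60 (SE 0.37), Atad2, at -0.34 (SE 0.25), and Pcna, at 0.30 (SE 0.24).

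Within GC B-like cells the summed level differed between genotypes by less than the spread among LDHA-sufficient mice. It averaged 7036 ± 181 in LDHA-deficient mice and 6405 ± 861 in LDHA-sufficient mice (CPM, SD, n = 3 each). The LDHA-deficient values come from 6 to 9 cells a mouse and move with the cells kept. With hashtags called by a ratio rule the sums were 4513, 8307 and 8906 in LDHA-deficient mice, against 7140, 6878 and 4453 in LDHA-sufficient mice, in CPM, the LDHA-deficient ones from 3, 6 and 3 cells. Without cells above 15000 UMIs they were 4513, 3530 and 8818 in LDHA-deficient mice, against 6309, 6237 and 4870 in LDHA-sufficient mice, in CPM, the LDHA-deficient ones from 3, 3 and 1 cells. Of 35 genes tested, 23 had a positive and 12 a negative log2 fold change, with a median of 0.21 beside 0.017 over 3211 genes. No gene of the 39 passed in edgeR (background 0.0%, as none of the 3211 genes passed), and DESeq2 called none. In edgeR 6 of the 35 had an unadjusted p under 0.05, beside 231 of all 3211 genes. In 7 of the 35, every LDHA-deficient mouse lay above every LDHA-sufficient mouse, beside 6.76% of all genes. These 7 are Cdc45, Ccne2, Pcna, Lig1, Rrm1, Rrm2 and Rpa2. In none of the 35 did all lie below, beside 6.26% of all genes. Cdc45 stood at 87.2, 158 and 130.0 in LDHA-deficient mice, against 69.4, 47.9 and 59.6 in LDHA-sufficient mice (log2 fold change 1.06, SE 0.34, adjusted p = 0.578). Rrm1 stood at 501, 632 and 488 in LDHA-deficient mice, against 368, 381 and 293 in LDHA-sufficient mice (log2 fold change 0.61, SE 0.20, adjusted p = 0.578). Rrm2 stood at 392.5, 316 and 336 in LDHA-deficient mice, against 208, 284 and 169 in LDHA-sufficient mice (log2 fold change 0.62, SE 0.24, adjusted p = 0.596). Both subunits of ribonucleotide reductase and Tyms (0.67, SE 0.37) had like log2 values. Atad2 had 0.65 (SE 0.26, adjusted p = 0.596), with LDHA-deficient mouse 2 among the LDHA-sufficient mice. These values rest on 23 LDHA-deficient cells, 20 of them in the mitotic cluster. Within that cluster the sum was 7611, 7605 and 7189 in LDHA-deficient mice, against 7791, 8223 and 5482 in LDHA-sufficient mice. Without LDHA-deficient mouse 1, the median was 0.20 over 38 genes, Cdc45 had 1.26 and Rrm1 0.64, and none passed.

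**Figure D5:**
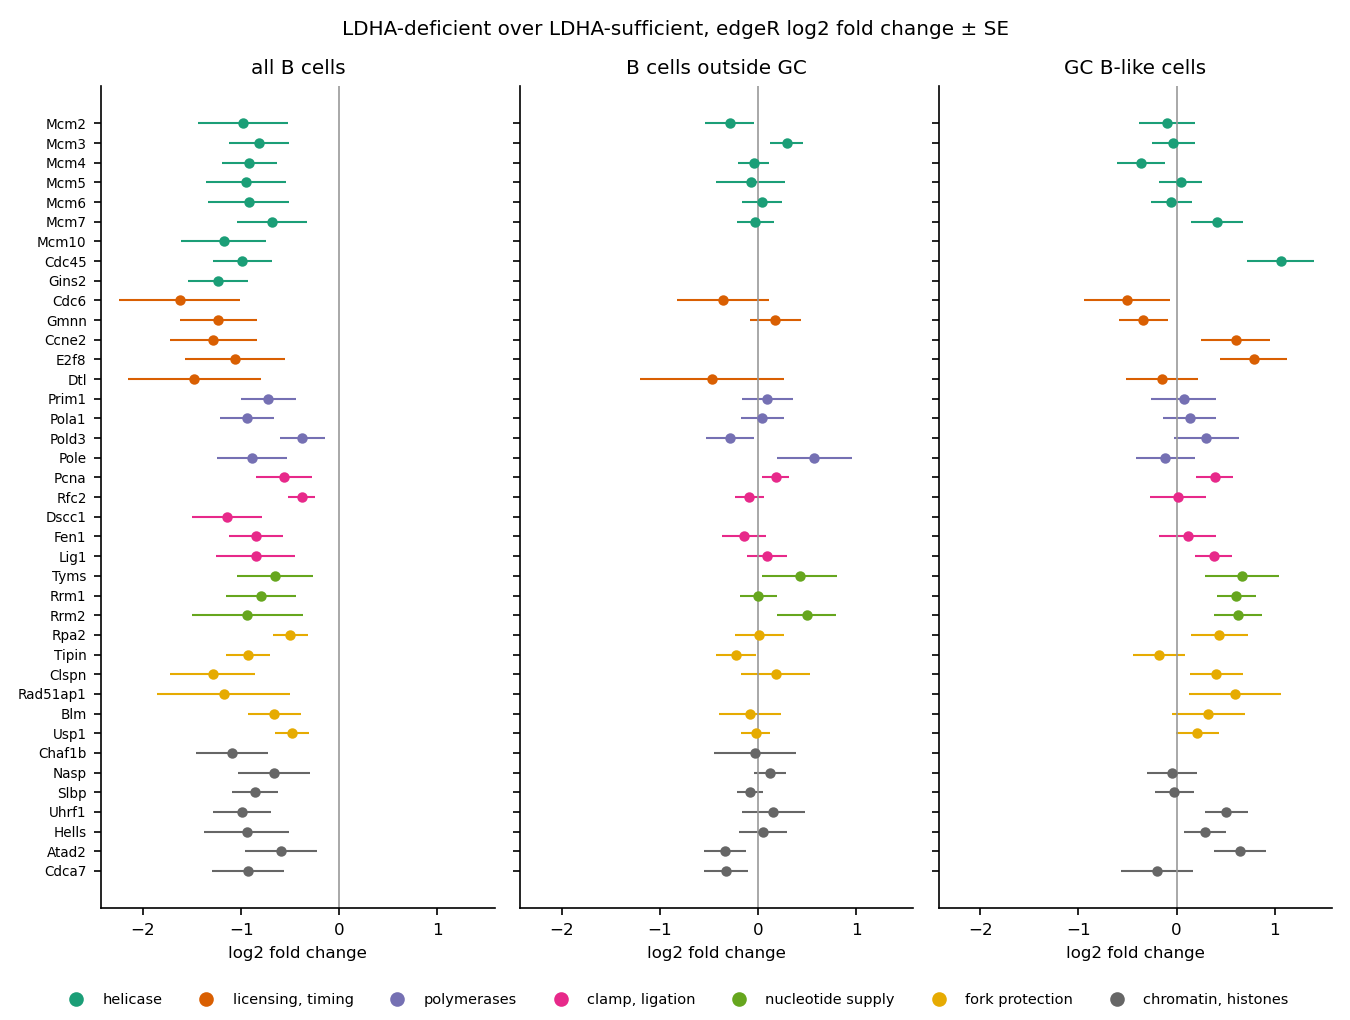
edgeR log2 fold change ± SE of each tested gene, LDHA-deficient over LDHA-sufficient (n = 3 mice each), in all B cells (left), B cells outside the GC B-like class (middle) and GC B-like cells (right). All 39 points lie below 0 on the left, with medians of -0.93, -0.010 and 0.21 from left to right, and no gene passed the adjusted threshold in any panel.

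The genotype effect in GC B-like cells was set against that in B cells outside the class, with the mouse as a block. None of the 39 passed in edgeR (background 0.0747%), and DESeq2 called none, nor did edgeR without LDHA-deficient mouse 1. In edgeR 1 had an unadjusted p under 0.05, beside 605 of all 9371 genes. The median difference of log2 fold changes was 0.024, beside -0.16 over 9371 genes, or 0.16 beside -0.024 with DESeq2 size factors. Atad2 had the smallest p, with a difference of 0.80 (SE 0.31, adjusted p = 0.628). Cdc45, Gmnn and Mcm4 followed at 1.37 (SE 0.74), -0.67 (SE 0.39) and -0.52 (SE 0.30).

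Cells whose heavy chain lay further from germline held more replication RNA than cells whose chain lay closer to it. A cell was called mutated when the V segment of its heavy chain had a deposited identity to germline under 0.99. This was taken as a trace of somatic hypermutation in the GC. All other cells are called unmutated here, though their chains can also differ from germline. Only LDHA-sufficient mice had at least 5 mutated cells each, so 3 mice were compared, each with itself. Mutated cells numbered 21, 23 and 6 and unmutated cells 176, 170 and 180. The 39 genes summed to 5214, 6185 and 2233 CPM in mutated cells, against 2783, 3555 and 1593 in unmutated cells of the same mice. The mutated cells were higher in each mouse. LDHA-deficient mice had 2, 4 and 2 mutated cells and entered no test. Of the 39 genes, 38 had a positive log2 fold change, with a median of 0.72 beside -0.026 over 7662 genes, and 10 rose past the adjusted threshold of edgeR with none falling (background 4.45% of genes called higher, 9.62% in either direction). A further 17 had an unadjusted p under 0.05 only. That makes 27 of the 39 with an unadjusted p under 0.05, beside 1595 of all 7662 genes.

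The 10 were Rrm1, Clspn, E2f8, Pola1, Gmnn, Slbp, Rfc2, Uhrf1, Fen1 and Mcm7, in order of p. Rrm1 stood at 303, 311 and 143 CPM in mutated cells, against 138, 163 and 77.0 in unmutated cells (log2 fold change 1.00, SE 0.22, adjusted p = 0.00308). Clspn stood at 166, 162 and 57.2 CPM in mutated cells, against 55.1, 90.9 and 31.5 in unmutated cells (log2 fold change 1.16, SE 0.26, adjusted p = 0.00373). E2f8, a repressor of E2F targets, stood at 125, 72.8 and 14.3 CPM in mutated cells, against 37.0, 35.8 and 11.7 in unmutated cells (log2 fold change 1.36, SE 0.33, adjusted p = 0.00651). Pola1 stood at 180.5, 149 and 57.2 CPM in mutated cells, against 77.4, 69.8 and 49.0 in unmutated cells (log2 fold change 1.03, SE 0.26, adjusted p = 0.00869). All 4 were higher in mutated cells of every mouse. Gmnn, Slbp, Rfc2, Uhrf1, Fen1 and Mcm7 had log2 fold changes of 0.99, 0.78, 0.85, 0.85, 0.86 and 0.76, with adjusted p from 0.0113 to 0.0439. Pcna had 0.43 (SE 0.25) and did not pass. Of the 8 of these with a matched promoter, 4 (Clspn, Pola1, Uhrf1 and Mcm7) hold E2F-type letters, beside 13 of the 29 matched genes in all.

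The calls depended on the mice and on the settings. Without LDHA-sufficient mouse 1, 0 of the 39 passed, without mouse 2, 2 did, and without mouse 3, which had 6 mutated cells, 12 did, 8 of them among the 10. DESeq2 called 1, and with an identity limit of 0.98 none passed. GC B-like cells were 15, 20 and 2 of the mutated cells and 17, 23 and 9 of the unmutated cells, and the part of that share in the result was not tested. Other cell cycle genes rose too. Of 53 mitotic genes, 44 rose and none fell, given with log2 fold changes and led by Cenpf (2.24, adjusted p = 2.14e-07), Hmgb2 (1.38, adjusted p = 5.36e-07), Ube2c (1.97, adjusted p = 2.70e-06) and Hmmr (2.18, adjusted p = 2.73e-06). Of 54 further replication genes, 9 rose, among them Asf1b (1.33, adjusted p = 0.00143), Dnmt1 (0.91, adjusted p = 0.00332) and Dbf4 (1.25, adjusted p = 0.00361). Of 24 G1 to S regulators, Ccna2 (1.47, adjusted p = 0.000172) and Cdkn2c (1.75, adjusted p = 0.00296) rose, while Cdkn1b (-1.68, adjusted p = 0.00103) and Rb1 (-1.73, adjusted p = 0.00192) fell.

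Some counts carry limits of annotation. Genes on the opposite strand overlap Mcm7, Cdc45, Gins2, Ccne2, Rfc2, Fen1 and Lig1, and processed pseudogenes of Pcna, Tyms and Nasp are annotated (GENCODE vM21). The sources used here do not say whether the counting used strand or split shared reads, so these counts are less certain.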

How the data were processed

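The files hold UMI counts for 2836 barcodes and 32285 genes from 1 lane, hashtag counts for 2831 barcodes and heavy chain contigs. Per the submitters' processing notes, reads were processed with Cell Ranger 6.0.0 on mm10 and with Seurat 4.2.1, while the deposited count file's header names Cell Ranger 6.0.2. The sources used here say nothing of strand in counting or of removal of ambient RNA or doublets before deposit. The labels give the hashtag and heavy chain libraries another cell type than the protocols, which describe B cells; the protocols were followed. Each heavy chain's deposited V identity is a fraction of 1.

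Hashtags were called with HTODemux in Seurat 5.3.0 (positive quantile 0.99), which gave 1856 singlets, 820 doublets between mice and 155 barcodes without a call. Doublets within 1 mouse cannot be seen by hashtags and were not removed; leaving out cells above 15000 UMIs is an alternative. Singlets with at least 500 genes, 1000 UMIs and at most 10% mitochondrial UMIs were clustered in scanpy 1.11.5 (Leiden, resolution 0.8, 20 neighbours, 30 components, 2000 variable genes) without the 39 genes, other cell cycle lists, Ldha, immunoglobulin and sex-linked genes. Clusters were named from marker genes, and 586 B cells stayed unnamed. For each class, UMI counts were summed per mouse and tested with edgeR 4.0.16 (quasi-likelihood, TMM, its default filter on low counts, Benjamini-Hochberg at 0.05), with DESeq2 1.42.0 as an alternative. The procedure was tested on simulated data. Each gene's adjustment runs over all genes of its fit. For heavy chains, 1085 B cells were used, after leaving out 58 cells of 18 clones found in more than 1 mouse. Depth per mouse was 1133366 to 2263254 UMIs.

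The 39 genes, the other lists and the tests were chosen with earlier results of these data known. Every gene with an adjusted p under 0.05, the 4 of smallest p in each test and the 2 with most UMIs in each role group were named, with up to 4 per other list and test, and Ldha, Mki67, Top2a and Myc. Some genes that this rule would name are not reported here. Other names were chosen after their values were seen. The labels do not say whether mice of different genotype share a litter or day.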

Additional observations from a re-analysis of the deposited data

How the results depend on the processing

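No paired analysis was possible because mouse numbers name mice within a genotype and pair none, apart from classes of the same mouse. Over all B cells, 116 genes passed in the edgeR test, against 186 with DESeq2, 672 with no filter on low counts and 30 without cells above 15000 UMIs, and 3 to 1364 with a mouse left out. Of the 39 genes, none passed there, against 9 lower with DESeq2, 21 with no filter, 1 with hashtags called by a ratio rule, 2 without cells above 15000 UMIs and 0 to 36 with a mouse left out, the 36 without LDHA-sufficient mouse 3. In B cells outside the GC B-like class 7 genes passed, against 1 with DESeq2, 30 with no filter, 12 at clustering resolution 0.4, 4 with cell cycle genes kept in clustering and 6 to 24 with a mouse left out. In activated B-like cells 1 passed, against 2, 30, 9 and 3 under the same settings, 3 without cells above 15000 UMIs and 2 to 18 with a mouse left out. In resting cells 6 passed, against 22 with no filter, 2 with the ratio rule, 3 without cells above 15000 UMIs and 8 to 24 with a mouse left out. In GC B-like cells 0 passed, against 3 with DESeq2, 46 with no filter, 1 with the ratio rule (where LDHA-deficient mouse 2 alone, with 6 cells, stood for its genotype), 1 at resolution 0.4 and 0 to 4 with a mouse left out. For the difference of effects 7 passed, against 0 with DESeq2, 25 with no filter and 1 to 47 with a mouse left out. In these 5 comparisons none of the 39 genes passed under any setting run. The causes were not tested.

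The median log2 fold change of the 39 genes in GC B-like cells, 0.21, was -0.015 with no filter and 0.039 to 0.26 with a mouse left out; in resting cells it was -0.42 without cells above 15000 UMIs. Under that setting the resting class takes in a cluster of 25 cells led by the cell cycle genes E2f7, Espl1 and Neil3, so its values, Pcna's among them, are not those of resting cells alone, and the summed level of the 39 genes in LDHA-sufficient mice moved to 1819 CPM, against 1089. State levels under this setting and the ratio rule were added after seeing the data. In activated B-like cells, 0.13, it ran from -0.18 to 0.53 with a mouse left out. Without cells above 15000 UMIs, the sign turned for Pole (-0.14) and Rrm2 (-0.061) outside the GC B-like class, Mcm6 in activated B-like cells (-0.25) and Pcna in resting cells (-0.12). For mutated against unmutated cells 737 genes passed, against 327 with DESeq2, 256 at an identity limit of 0.98 and 339 to 842 with a mouse left out; of the 39, 10 passed, against 1 with DESeq2, 0 at the limit of 0.98 and 0 to 12 with a mouse left out. With DESeq2 size factors 11 passed, 10 of them shared. The share of GC B-like cells with 5 or more UMIs of the 39 genes, averaged over the LDHA-sufficient mice only, was 82.0%. It was 91.4% at 3 or more and 62.8% at 8 or more. Outside the class the same average, 9.07%, became 36.9% and 2.25%. Fits of activated B-like cells under the ratio rule and of GC B-like cells without cells above 15000 UMIs gave no value, since too few cells were left in the class. Shares and state levels are limited by the 23 GC B-like cells of LDHA-deficient mice.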
